A study of Mus musculus with 36 samples.

Results

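The genes described here are 10 members of the fibroblast growth factor (Fgf) family, measured by RNA-seq in cultured mouse nephron progenitor cells (NPCs). They comprise 6 genes for ligands, *Fgf1*, *Fgf2*, *Fgf8*, *Fgf9*, *Fgf10* and *Fgf20*, and the 4 genes for the receptor tyrosine kinases, *Fgfr1*, *Fgfr2*, *Fgfr3* and *Fgfr4*. They were chosen by symbol, and all 10 were found among the 30125 genes listed in the 3 tables of the series. NPCs were isolated from E16.5 kidneys of embryos carried by Swiss Webster or C57Bl/6 mice, and the libraries are 36 in all. The wild-type table holds NPCs of genotype Wild Type without CHIR99021 (CHIR, a GSK3 inhibitor that activates canonical Wnt signaling), in low CHIR (1.25 µM) and in high CHIR (5 µM), with 3 libraries each. A further table holds 16 libraries with β-catenin removed by 2 routes, each at low and high CHIR with 2 libraries a group. In cells of genotype B-catenin_c_c, homozygous for a conditional *Ctnnb1* allele, libraries labelled Cre-pos (here Cre) were compared with Cre-neg (no Cre). In cells of genotype Cas9-eGFP, which make Cas9 constitutively, Ctnnb1 sgRNA was compared with GFP sgRNA. The last table holds Cas9-eGFP cells given guides against *Tcf7*, *Tcf7l1*, *Tcf7l2* and *Lef1* together (QKO) or GFP sgRNA (control), with 3 libraries a group except for QKO in low CHIR, which has 2. Cells of these last 16 and 11 libraries were transfected before the change to low or high CHIR and sorted by their mCherry reporter just before RNA was isolated, which the wild-type cells were not, and every group grew in NPEM, a medium that itself contains recombinant human FGF9 and heparin. Between transfection and the change of dose, cells of the QKO table were kept in low CHIR for longer than those of the β-catenin table. The *Ctnnb1* guides are a pool, and guides give mixed cells rather than a clone.

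Fgf ligands bind their receptors together with heparan sulfate, and the receptors signal through Ras and ERK. Activated ERK raises the Etv transcription factors and inhibitors such as Sprouty proteins, which damp the pathway. In the developing kidney, *Fgf9* and *Fgf20* are known as ligands that keep NPCs in the undifferentiated state, and *Fgf8* as a ligand of the renal vesicle that forms once NPCs are induced by Wnt signals. *Fgfr1* and *Fgfr2* are the receptors known to be needed in the nephron lineage. *Fgf1* and *Fgf2* encode ligands without a classical signal peptide, *Fgf2* being widely made by fibroblasts, and *Fgf10* encodes a mesenchymal ligand that acts on epithelia.

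In the GENCODE vM21 annotation of GRCm38, *Fgf9* lies on chromosome 14 from 58070547 to 58112720, *Fgf8* on chromosome 19 from 45736798 to 45742915, *Fgfr2* on chromosome 7 from 130162451 to 133123350 and *Fgfr1* on chromosome 8 from 25513654 to 25575718. *Fgf2* lies on chromosome 3, *Fgfr3* on chromosome 5, *Fgf20* on the chromosome of *Fgfr1*, and *Fgf10* and *Fgfr4* on chromosome 13. All are protein coding. Exons of *Fgf2* overlap 640 bases of *Nudt6* on the opposite strand, and those of *Fgf10*, *Fgf20*, *Fgfr1* and *Fgfr3* also overlap exons of a gene on the opposite strand, by 123 to 998 bases. The library kit is not stated to keep strand, so reads of such pairs cannot be told apart by strand. *Fgfr2* shares 314 exon bases with *Ctbp2* on its own strand. RefSeq promoter windows (GRCm38.p6) were at hand for 6 of the 10 genes. The 250 bases before the start of *Fgf9* and of *Fgfr2* are shown because these are a ligand and a receptor that were called for both a CHIR dose and β-catenin and for which a window was at hand. Capitals mark the letters CTTTG or, on the other strand, CAAAG, the core of the DNA sequence that Tcf/Lef factors recognise. The *Fgf9* window is chr14:58072436-58072685 (+ strand) and the *Fgfr2* window chr7:130266809-130267058 (- strand). Both windows lie inside the GENCODE spans given above, so these RefSeq starts are not the outermost starts of the annotated genes.
Fgf9: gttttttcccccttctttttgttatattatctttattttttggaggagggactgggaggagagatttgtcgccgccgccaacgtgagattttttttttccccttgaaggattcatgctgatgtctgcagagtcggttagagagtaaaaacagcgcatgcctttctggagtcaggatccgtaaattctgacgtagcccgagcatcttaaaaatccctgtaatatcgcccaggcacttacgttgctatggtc
Fgfr2: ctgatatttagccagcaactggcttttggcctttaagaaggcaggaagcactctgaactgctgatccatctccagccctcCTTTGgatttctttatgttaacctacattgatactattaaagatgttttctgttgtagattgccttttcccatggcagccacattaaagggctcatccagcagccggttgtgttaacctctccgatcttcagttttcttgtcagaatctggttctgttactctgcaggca
The *Fgf9* window holds neither form of these letters, and the *Fgfr2* window holds 1 match, starting 170 bases before the start. Across the 7 windows of the 6 genes, 4 held a match (*Fgf2*, *Fgf10*, *Fgfr2* and *Fgfr4*), and 48.6% of all 32851 mouse promoter windows of this length did. A match is a description of the sequence, and its absence says nothing of more distant sites.

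Values are normalized counts, the reads of a gene divided by a size factor of the library. Each table was scaled on its own, so that tests were made within a table. The libraries held between 13089780 and 76071568 reads on genes (median 18990328). Genes were tested where their mean over a table was at least 10 normalized counts. All 10 members passed in the wild-type table, 9 in the QKO table (not *Fgf20*) and 8 in the β-catenin table (neither *Fgf8* nor *Fgf20*). A gene is called here where limma's moderated test on log2(normalized count + 1), adjusted over all genes by Benjamini-Hochberg, gave an adjusted p under 0.05 with a log2 fold change of at least 0.5. The pseudocount of 1 makes the fold changes of low genes smaller than they are, and p-values measure the spread between libraries that the labels give as replicates. All 10 nephron progenitor markers passed the filter in each table. Stromal markers were also present throughout, with 6 or 7 of 8 past the filter and a summed level of 1047 to 28866. The total of *Ctnnb1* was lower with the guides, at 1652 and 1040 normalized counts with Ctnnb1 sgRNA against 2521 and 3397 with GFP sgRNA in low CHIR, and at 1630 and 1270 against 2632 and 2701 in high CHIR. With Cre it was 3085 and 2451 against 3880 and 3097 in low CHIR, and 2254 and 2583 against 2423 and 2207 in high CHIR. A Cre deletion that leaves some exons in place still gives reads, so the total is no check of those libraries. In QKO, *Tcf7* ranged from 66.2 to 97.7 against 141 to 220.1 in low CHIR and from 110 to 180 against 268 to 535 in high CHIR, *Lef1* was lower in high CHIR only, *Tcf7l1* in low CHIR only, and *Tcf7l2* overlapped its control in both; guide edits can leave a transcript in place. In the wild-type table, replicate 3 of high CHIR stood apart, for example with 1227 counts of *Fgf3* against 0 and 1.40 in replicates 1 and 2. In the QKO table, replicate 1 of the high CHIR control had a summed level of 2795 for blood and immune markers, against 4.25 to 159 in the other 10 libraries. Results that rest on either are given with and without it.

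The first comparison asks how the family responds to the Wnt dose in unmodified NPCs. *Fgf1* and *Fgf8* were graded in opposite directions over the 3 doses, and *Fgf9* was highest in the middle one. *Fgf1*, which lies on chromosome 18 from 38838673 to 38929472, had 2680.0, 2897 and 4179 normalized counts in the 3 libraries without CHIR, 368, 642 and 1216 in low CHIR and 32.5, 50.3 and 7.48 in high CHIR. No library of one dose overlapped those of the next. In bulk RNA, fewer cells that make a transcript cannot be told apart from less of it per cell. *Fgf1* fell from low to high CHIR (log2 fold change -4.76, standard error 0.61, adjusted p = 0.000878) and the fold between the means was 24.7. Between no and low CHIR its means were 3252 ± 810.1 (SD, n = 3) and 742 ± 433 (SD, n = 3), and this step was not called (log2 fold change 2.27, standard error 0.61, adjusted p = 0.0607). That adjusted p was between 0.000699 and 0.0769 under the other settings with all libraries.

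*Fgf9*, the NPC maintenance ligand, had 459.8, 483 and 515 normalized counts without CHIR, 2411, 3281 and 2389 in low CHIR and 584, 839 and 483 in high CHIR. The low CHIR libraries stood above all 6 others, and those without CHIR and in high CHIR overlapped. Both steps were called, with a log2 fold change of -2.45 for no against low CHIR (standard error 0.21, adjusted p = 0.00107) and of -2.10 for high against low CHIR (standard error 0.21, adjusted p = 0.000193). The low CHIR mean was 5.54 times that without CHIR and 4.24 times that in high CHIR. Each step kept its call in each of the 6 fits that left out a library.

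*Fgf8*, the renal vesicle ligand, had 3.57, 1.46 and 4.47 normalized counts without CHIR, 32.9, 23.7 and 4.79 in low CHIR and 150.1, 93.5 and 248 in high CHIR. The groups did not overlap, although replicate 3 of low CHIR came close to the libraries without CHIR. *Fgf8* rose from low to high CHIR (log2 fold change 3.17, standard error 0.68, adjusted p = 0.0143) and the step from none to low CHIR was not called (log2 fold change -2.10, standard error 0.68, adjusted p = 0.106). *Fgf20*, a maintenance ligand, was listed at 0 in all 3 libraries without CHIR, had 1.20 to 6.57 counts in low CHIR and 0, 0 and 519 in high CHIR. It passed the filter only through replicate 3 of high CHIR, the library that stood apart, and neither step was called (adjusted p = 0.594 and 0.828).

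*Fgf2* had 171, 89.3 and 72.6 normalized counts without CHIR, 137, 94.9 and 71.9 in low CHIR and 132, 62.8 and 53.3 in high CHIR. All 3 groups overlapped, and neither step was called (log2 fold changes 0.08 for no and -0.35 for high against low CHIR, adjusted p = 0.941 and 0.67). *Fgf10* had 41.5, 33.7 and 48.0 counts without CHIR and 57.8, 69.3 and 51.5 in low CHIR. In high CHIR it had 72.8, 166 and 14.0 counts, the widest spread of its 3 groups, and neither step was called (adjusted p = 0.711 and 0.961).

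Among the receptors, *Fgfr1* and *Fgfr3* were lower in high CHIR and *Fgfr2* was lower without CHIR. *Fgfr1* had 3844, 3448 and 3749 normalized counts without CHIR, 3104, 3199 and 3066 in low CHIR and 2188, 2168 and 1026 in high CHIR. It fell in high CHIR (log2 fold change -0.88, standard error 0.25, adjusted p = 0.0494), with every high CHIR library below every other and replicate 3 the lowest. *Fgfr2* had 143, 168 and 143 counts without CHIR, 306, 288 and 243 in low CHIR and 336, 382 and 246 in high CHIR. It was lower without CHIR than in low CHIR (log2 fold change -0.87, standard error 0.21, adjusted p = 0.0433), with groups that did not overlap, and did not pass the test between low and high CHIR (log2 fold change 0.19, adjusted p = 0.641). This *Fgfr2* call was lost in each of the 6 fits that left out a library (adjusted p 0.072 to 0.169), with fold changes of -0.97 to -0.80.

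*Fgfr3* had 220.2, 136 and 151 normalized counts without CHIR, 133, 91.1 and 139 in low CHIR and 35.9, 54.4 and 58.9 in high CHIR. It fell in high CHIR (log2 fold change -1.27, standard error 0.30, adjusted p = 0.023), and without CHIR its libraries overlapped those of low CHIR. Leaving out low CHIR replicate 1 or 3 or high CHIR replicate 1 ended that call (adjusted p up to 0.105), and for *Fgfr1* leaving out any of the low CHIR libraries did (adjusted p up to 0.136). The *Fgfr1* call was also lost with edgeR (adjusted p = 0.0579) and when the 6 compared libraries were fitted alone (adjusted p = 0.112). *Fgfr4* ran from 19.6 to 70.6 counts over the 9 libraries, its groups overlapped, and neither step was called (adjusted p = 0.931 and 0.593).

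**Figure D1:**
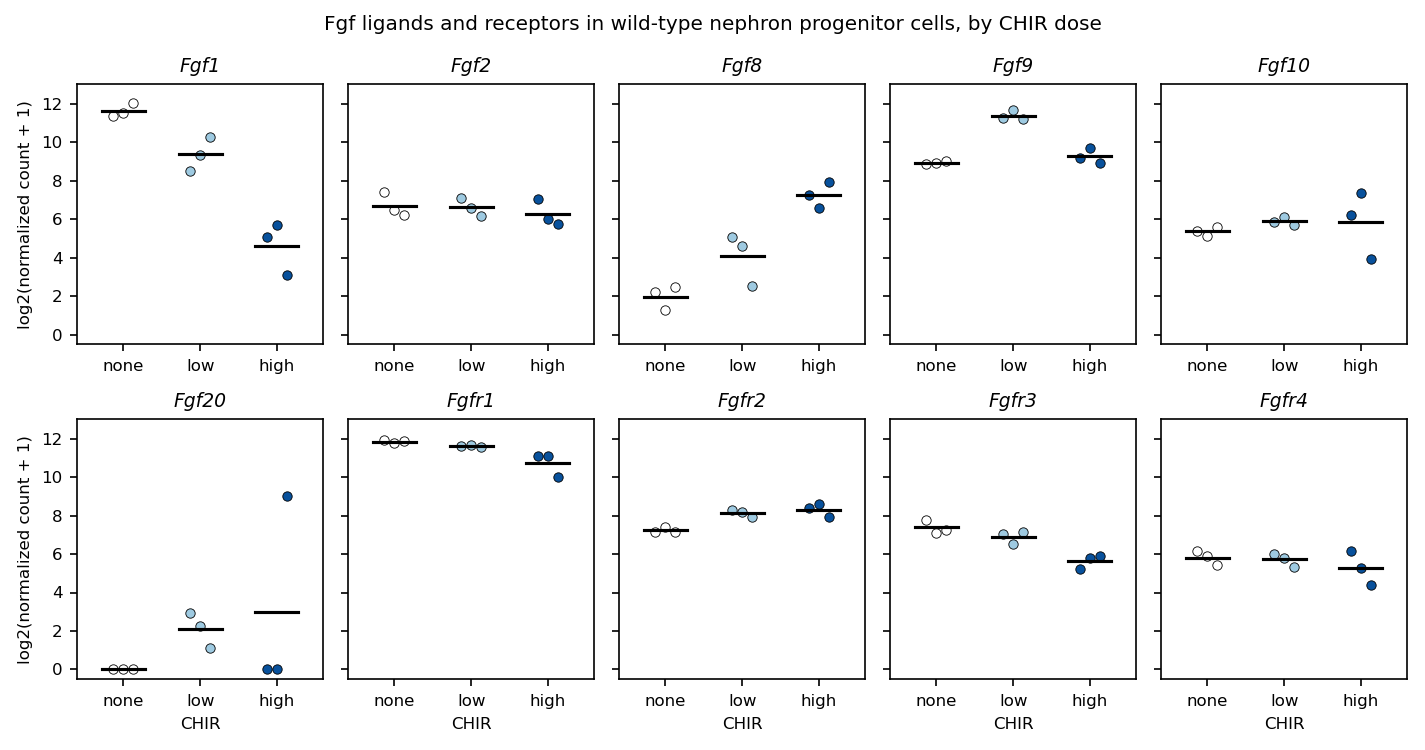
Normalized counts of the 6 ligand and 4 receptor genes in wild-type NPCs, as log2(normalized count + 1), against CHIR dose (none, low, high); points are the 3 libraries of a dose and lines their means. *Fgf1* steps down and *Fgf8* up over the doses, *Fgf9* is highest in low CHIR, and *Fgf20* lies at 0 in 5 of 9 libraries with a single point near 9 in high CHIR.

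In all, 5 of the 10 members were called between low and high CHIR, 1 higher and 4 lower, beside 10.4% of all 17411 genes tested (5.33% higher and 5.05% lower). Between no and low CHIR 2 were called, both lower without CHIR, beside 4.97% of all genes (2.6% lower). That last count rested on single libraries, as it fell from 865 genes to 113 without replicate 3 of no CHIR. The median log2 fold change of the members was -0.40 for high against low CHIR, where that of all genes was 0.01, and -0.22 for no against low CHIR, where that of all genes was also 0.01. Without replicate 3 of high CHIR, the 5 calls remained, with *Fgf1* at log2 fold change -4.00, adjusted p = 0.000285, *Fgf8* at log2 fold change 2.82, adjusted p = 0.0332 and *Fgf9* at log2 fold change -1.93, adjusted p = 0.000205. *Fgfr1* was then at log2 fold change -0.52, adjusted p = 0.0102 and *Fgfr3* at log2 fold change -1.41, adjusted p = 0.0212. The log2 fold change of *Fgfr1* thus moved from -0.88 to -0.52. *Fgf10* turned from a log2 fold change of -0.08 to 0.89 without it (adjusted p = 0.201), and *Fgf20* from 0.90 to -2.11 (adjusted p = 0.053).

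Other markers moved with the dose. The summed level of the 6 markers of induced NPCs was 2503 to 5075 without CHIR, 4308 to 8742 in low CHIR and 27832 to 38639.6 in high CHIR, and that of the 10 nephron progenitor markers was 29012 to 33375, 18192 to 24019 and 4383 to 9799. The 6 measured of 8 ureteric markers summed to 1317 to 5852 in high CHIR, against 367 to 720.1 in low CHIR, the 6 endothelial markers to 650.5 to 1412 against 26.6 to 47.3, the 7 measured of 8 blood and immune markers to 221 to 297 against 707 to 829, and the 8 stromal markers to 3836 to 11351 against 11132 to 16694. Their part in the changes of the Fgf genes was not tested.

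Divided by the exon length of each gene, the levels can be set in order within a group. Without CHIR, *Fgf1* led with 595 ± 148 normalized counts per kb (mean ± SD, n = 3), followed by *Fgfr1* with 373 ± 20.9 and *Fgf9* with 105 ± 5.95, and no libraries of these neighbours overlapped. *Fgfr3*, *Fgf2*, *Fgfr4* and *Fgfr2* followed between 23.6 and 14.7 per kb, each overlapping its neighbour, and *Fgf10* (8.93 ± 1.56), *Fgf8* (2.35 ± 1.14) and *Fgf20* (0) came last without overlap. In low CHIR, *Fgf9* led with 579 ± 109 per kb, followed by *Fgfr1* with 316 ± 6.92, *Fgf1* with 136 ± 79.2 and *Fgfr2* with 27.01 ± 3.14, again without overlap. *Fgfr3*, *Fgf8*, *Fgf2*, *Fgfr4* and *Fgf10* came next, between 16.9 and 12.9 per kb, and each overlapped its neighbour. *Fgf20* was last with 2.30 ± 1.60 per kb. In high CHIR, *Fgfr1* (182 ± 67.3), *Fgf9* (137 ± 39.4) and *Fgf8* (121 ± 57.8) overlapped each other in order. *Fgf20* came next only through its 1 high library, followed by *Fgfr2* (31.1 ± 6.73), *Fgf10* (18.3 ± 16.7), *Fgf2* (12.2 ± 6.35), *Fgfr4* (12.0 ± 7.29) and *Fgfr3* (6.95 ± 1.71), again each overlapping the next, and *Fgf1* was last with 5.50 ± 3.93 per kb. The ligand with the highest mean per kb was thus *Fgf1* without CHIR and *Fgf9* in low and in high CHIR, in the last overlapping *Fgf8*, and *Fgfr1* was the highest receptor at all 3 doses.

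The next comparison asks which of these levels in high CHIR need β-catenin. *Fgf1* was far higher without β-catenin by both routes. In high CHIR it had 7.36 and 14.5 normalized counts without Cre and 3583 and 1699.9 with Cre, and 16.5 and 0 with GFP sgRNA against 2246 and 2213 with Ctnnb1 sgRNA. Every library without β-catenin lay above every control, and the fold between the means was 241 with Cre and 270.5 with Ctnnb1 sgRNA. *Fgf1* rose with Cre (log2 fold change 7.76, standard error 0.87, adjusted p = 7.31e-05) and with Ctnnb1 sgRNA (log2 fold change 9.06, standard error 0.87, adjusted p = 3.97e-05). The second fold change depends on the pseudocount, since a control library is listed at 0, and with a pseudocount of 5 it was 7.75 (adjusted p = 1.59e-06).

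*Fgf9* and *Fgfr2* were lower without β-catenin, and were called with Cre. Replicate numbers pair the libraries within each route of this table, and a fit with the number as a block left the fold changes as they were. Its adjusted p is given where it changes a call. *Fgf9* had 8196 and 3181 normalized counts in high CHIR without Cre and 1462 and 572 with Cre, and fell (log2 fold change -2.48, standard error 0.51, adjusted p = 0.00772). With GFP sgRNA it had 7448 and 6899 counts and with Ctnnb1 sgRNA 2715 and 1811, again without overlap, but this difference was called only with the block (log2 fold change -1.69, standard error 0.51, adjusted p = 0.0793, or 7.5e-06 with the block). *Fgfr2* had 419.8 and 297 counts without Cre and 153 and 138 with Cre, and fell (log2 fold change -1.27, standard error 0.31, adjusted p = 0.0189). It had 415 and 505 counts with GFP sgRNA and 215 and 216 with Ctnnb1 sgRNA, groups that did not overlap and were called as different only with the block (log2 fold change -1.09, standard error 0.31, adjusted p = 0.0592, or 0.02 with the block). Each of these 4 differences was lower without β-catenin in 2 of 2 libraries.

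Leaving out no-Cre replicate 1 or Cre replicate 2 ended the *Fgf9* call with Cre (adjusted p up to 0.0985, fold changes of -3.16 to -1.80). Leaving out no-Cre replicate 1 or either Cre library ended that of *Fgfr2* (adjusted p up to 0.166, fold changes of -1.52 to -1.02). With edgeR, *Fgfr2* was not called with Cre (adjusted p = 0.0677). Both *Fgf1* calls held in each of the 4 fits that left out a library. Fitted on the 4 compared libraries alone, the Cas9 differences of *Fgf9* and *Fgfr2* passed the test (adjusted p = 0.00593 and 0.0179), and the Cre ones did not (adjusted p = 0.0773 and 0.0844).

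The other receptors and ligands passed no test in high CHIR without the block, and 2 passed with it. *Fgfr1* had 2161 and 2217 counts without Cre, 3028 and 2589 with Cre, 2821 and 2916 with GFP sgRNA and 4864 and 3512 with Ctnnb1 sgRNA, so that it lay higher without β-catenin in every library of both routes (log2 fold changes 0.35 and 0.53, adjusted p = 0.392 and 0.19). With the block, *Fgfr1* was called with Ctnnb1 sgRNA (adjusted p = 0.0411). The log2 fold changes of *Fgf2*, *Fgf10*, *Fgfr3* and *Fgfr4* ran from -1.27 to 1.19 over both routes, with adjusted p of at least 0.229, and with the block *Fgf2* was called higher with Cre (log2 fold change 0.96, adjusted p = 0.0462). *Fgf8* was too low to be tested. It had 10.1 and 10.4 counts without Cre, 2.02 and 0 with Cre, 8.99 and 14.4 with GFP sgRNA and 8.29 and 0.880 with Ctnnb1 sgRNA, and every control library was above every library without β-catenin. *Fgf20* was listed at 0 in 7 of these 8 libraries and at 0.957 in the other.

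**Figure D2:**
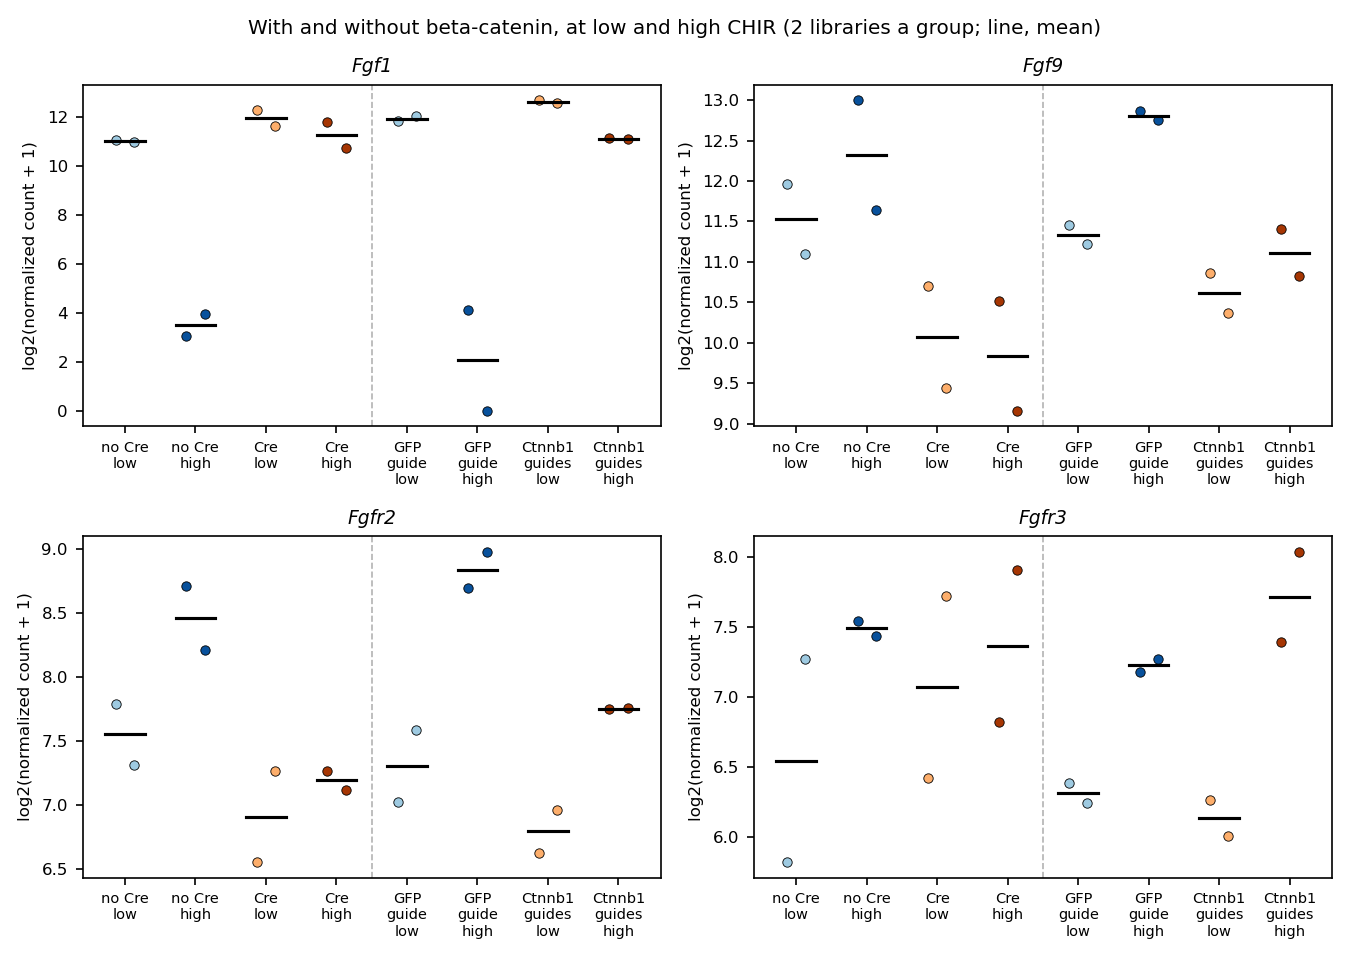
Levels of *Fgf1*, *Fgf9*, *Fgfr2* and *Fgfr3*, as log2(normalized count + 1), with and without β-catenin; pairs along the axis are low and high CHIR for no Cre, Cre, GFP guide and Ctnnb1 guides, points are the 2 libraries of a group and lines their means. In high CHIR the *Fgf1* libraries without β-catenin lie above 10 on this scale and the controls below 5, and *Fgf9* and *Fgfr2* lie lower without β-catenin than in their controls.

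Of the 8 members tested, 3 were called with Cre in high CHIR (1 higher, 2 lower), beside 8.65% of all genes (5.9% higher and 2.75% lower), and 1 with Ctnnb1 sgRNA, beside 5.09% of all genes. With the block these were 4 with Cre, beside 15.7% of all genes, and 4 with Ctnnb1 sgRNA, beside 12.7%. In low CHIR, no member was called with either route, where limma called 0.328% of all genes with Cre and 0.0536% with Ctnnb1 sgRNA. With the block *Fgf9* was called lower with Cre (at -1.46, adjusted p = 0.000195), beside 3.06% of all genes, and no member with Ctnnb1 sgRNA, beside 0.125%. No member had an unadjusted p under 0.05 in low CHIR with Ctnnb1 sgRNA, and 1 had with Cre, *Fgf9* (adjusted p = 0.307); edgeR and DESeq2 called none. *Fgf1* in low CHIR had 2174 and 2058 counts without Cre and 5098 and 3229 with Cre, and 3696 and 4213 with GFP sgRNA against 6682 and 6077 with Ctnnb1 sgRNA. It lay higher without β-catenin in every library, by log2 fold changes of 0.94 and 0.69. *Fgf9* lay lower in every library, with 4007 and 2188 counts without Cre, 1658 and 696 with Cre, 2802 and 2391 with GFP sgRNA and 1868 and 1322 with Ctnnb1 sgRNA (log2 fold changes -1.46 and -0.72). *Fgfr2* had 221 and 158 counts without Cre and 93.1 and 153 with Cre, and 129 and 192 with GFP sgRNA against 97.8 and 124 with Ctnnb1 sgRNA.

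Induced NPC markers moved with the removals in high CHIR as well. Their summed level was 20989 and 18922 without Cre and 3619.7 and 3306 with Cre, and 25203 and 23773 with GFP sgRNA against 8034 and 5538 with Ctnnb1 sgRNA. Stromal markers summed to 4952 and 6106 without Cre and 7161 and 12644 with Cre, and to 14133 and 4747 with GFP sgRNA against 19341 and 12216 with Ctnnb1 sgRNA. The 10 nephron progenitor markers summed to 17994 and 13287 without Cre and 15486 and 13385 with Cre. They summed to 15601 and 17431 with GFP sgRNA and 14799 and 15651 with Ctnnb1 sgRNA, so that the groups overlapped by both routes. The part of these lists in the changes of the Fgf genes was not tested.

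The response to high CHIR can also be read within each arm, which asks whether it depends on β-catenin. *Fgf1* fell from low to high CHIR without Cre (log2 fold change -7.54, standard error 0.87, adjusted p = 8.99e-05) and with GFP sgRNA (log2 fold change -9.88, standard error 0.87, adjusted p = 1.13e-05). With Cre its log2 fold change was -0.72 (adjusted p = 1) and with Ctnnb1 sgRNA -1.51 (adjusted p = 0.63), and neither was called. With Ctnnb1 sgRNA the groups did not overlap, at 6077 to 6682 counts in low CHIR and 2213 to 2246 in high CHIR. With Cre they overlapped, at 3229 to 5098 and 1699.9 to 3583 counts. The difference between the responses was called for both routes, at a log2 difference of 6.82 for Cre (standard error 1.22, adjusted p = 0.0145) and 8.37 for Ctnnb1 sgRNA (standard error 1.22, adjusted p = 0.00602). Across all genes, 0.995% and 0.518% were called in these tests, and *Fgf1* was the only member called in either without the block. With the block, which called 3.13% and 1.4% of all genes, *Fgf9* was called as well, at a log2 difference of -1.02 for Cre (adjusted p = 0.0222) and -0.97 for Ctnnb1 sgRNA (adjusted p = 0.0472). Without the block, each of 4 libraries ended the *Fgf1* call for Cre when left out (adjusted p up to 0.0689). These were replicate 1 of no Cre in low CHIR, replicate 2 of Cre in low CHIR, and replicate 1 of no Cre and of Cre in high CHIR.

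*Fgf9* had higher means in high than in low CHIR in the controls of this table, and both differences were called only with the block. Its log2 fold change from low to high CHIR was 0.79 without Cre and 1.47 with GFP sgRNA (adjusted p = 0.395 and 0.112, or 0.00317 and 1.84e-05 with the block), and with GFP sgRNA both high CHIR libraries stood above both in low CHIR. *Fgfr2* rose with GFP sgRNA (log2 fold change 1.54, standard error 0.31, adjusted p = 0.00708) and had a log2 fold change of 0.91 without Cre (adjusted p = 0.092, or 0.0373 with the block), its high CHIR libraries being above those in low CHIR in both controls. Leaving out replicate 1 in low CHIR or replicate 2 in high CHIR ended the *Fgfr2* call (adjusted p up to 0.0889), as did edgeR (adjusted p = 0.109). Without β-catenin, *Fgfr2* had log2 fold changes of 0.28 with Cre and 0.96 with Ctnnb1 sgRNA (adjusted p = 1 and 0.278), and its interaction terms were not called (adjusted p = 0.766 and 0.865).

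*Fgfr3* had more counts in high than in low CHIR in both controls. It had 55.5 and 153 counts in low CHIR and 185 and 172 in high CHIR without Cre. With GFP sgRNA it had 82.5 and 74.7 in low CHIR and 144 and 153 in high CHIR. With Ctnnb1 sgRNA it had 75.9 and 63.4 in low CHIR and 167 and 261 in high CHIR. The groups did not overlap in any of these 3 arms, and none of the responses was called without the block (log2 fold changes 0.94, 0.91 and 1.58, adjusted p = 0.289, 0.332 and 0.278). With it, that with Ctnnb1 sgRNA was called (adjusted p = 0.0241). *Fgf10* lay lower in high CHIR in both controls. Without Cre it had 61.1 and 38.5 counts in low CHIR and 10.1 and 23.9 in high CHIR, and with GFP sgRNA 78.5 and 62.8 in low CHIR and 32.2 and 44.0 in high CHIR. Neither response was called (adjusted p = 0.099 and 0.383), and with the block that without Cre was (adjusted p = 0.0491).

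**Figure D3:**
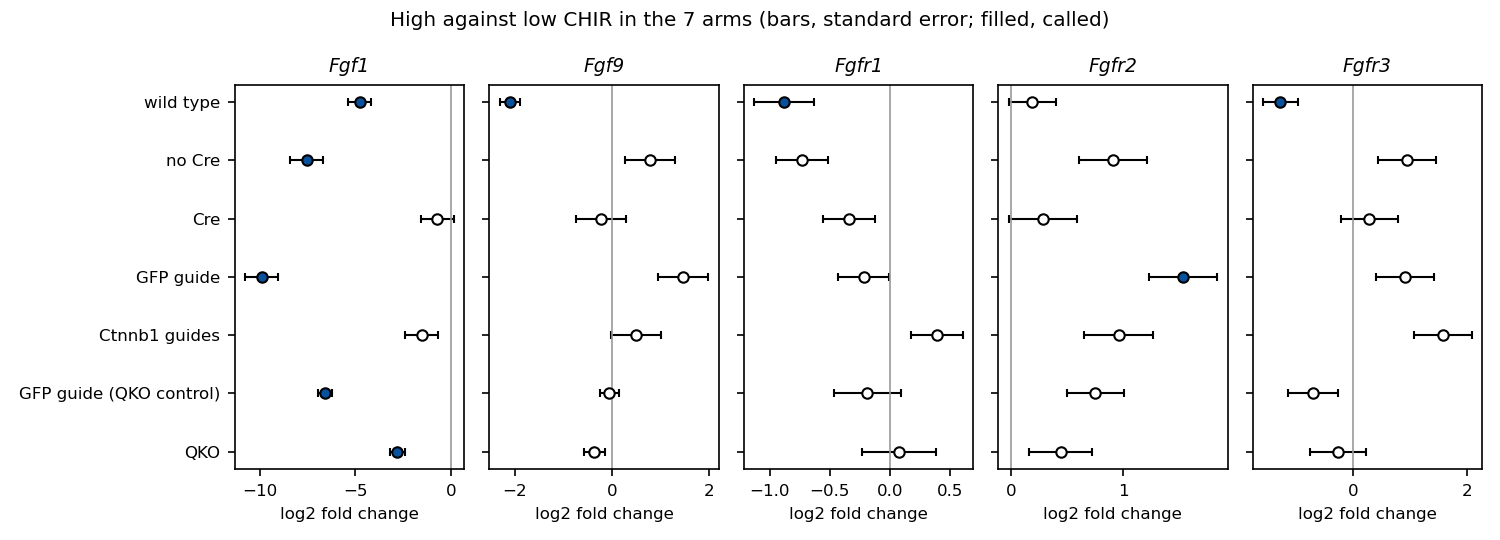
Log2 fold change from low to high CHIR of *Fgf1*, *Fgf9*, *Fgfr1*, *Fgfr2* and *Fgfr3* in the 7 arms of the series, with bars for the standard error; filled points were called and each panel has its own scale. *Fgf1* falls in the 4 arms with β-catenin and Tcf/Lef factors intact and in QKO, by less in QKO, and *Fgf9* is below 0 with a filled point only in wild type. With Cre and with Ctnnb1 guides, *Fgf1* is below 0 with open points.

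Side by side over the arms, the share of members called for high against low CHIR was 1 of 8 without Cre, beside 8.05% of all genes, and 2 of 8 with GFP sgRNA, beside 7.51%. It was 0 of 8 in both arms without β-catenin, beside 0.292% with Cre and 0.763% with Ctnnb1 sgRNA by limma without the block, with no member at an unadjusted p under 0.05 with Cre and 2, *Fgfr2* and *Fgfr3*, with Ctnnb1 sgRNA. In these 2 arms edgeR called none, and DESeq2 called *Fgfr3* with Ctnnb1 sgRNA (adjusted p = 0.0493). With the block, 6 of 8 were called without Cre, beside 15.9% of all genes, 3 of 8 with GFP sgRNA, beside 15.3%, none with Cre, beside 0.763%, and 1 with Ctnnb1 sgRNA, beside 2.66%. The 2 of these 6 not named above were *Fgf2* (log2 fold change -1.14, adjusted p = 0.0208) and *Fgfr1* (log2 fold change -0.73, adjusted p = 0.00527).

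The last comparison asks which changes need the Tcf/Lef factors themselves. *Fgf1* was again the member that moved. In high CHIR it had 21.4, 61.7 and 17.0 normalized counts in the control and 349, 435 and 432 in QKO, with no overlap, and it was higher in QKO (log2 fold change 3.78, standard error 0.36, adjusted p = 0.000476). In low CHIR it had 2347, 3492 and 2705 counts in the control and 2807 and 2789 in QKO, which overlapped (log2 fold change -0.01, adjusted p = 0.998). The fall from low to high CHIR was called in both arms, at a log2 fold change of -6.58 in the control (adjusted p = 7.04e-07) and -2.79 in QKO (adjusted p = 0.00394), and so was the difference between them (log2 fold change 3.79, standard error 0.54, adjusted p = 0.0288). *Fgf1* in QKO in high CHIR thus lay between its control levels at the 2 doses, whereas without β-catenin it had 1699.9 to 3583 counts over 4 libraries in high CHIR. The tables were scaled separately, the time between transfection and the change of dose was longer for QKO, and these levels were not tested against each other.

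Without replicate 1 of the high CHIR control, which held blood and immune markers, *Fgf1* in high CHIR was at log2 fold change 3.59, adjusted p = 0.00214 for QKO against control, and its CHIR response in the control at log2 fold change -6.39, adjusted p = 6.88e-06. Without that library the difference of responses was at log2 fold change 3.59, adjusted p = 0.0627. The difference of responses was called in 3 of the 11 fits that left out a library, those without replicate 3 of the control in low CHIR and without replicate 2 or 3 of the control in high CHIR. Otherwise its adjusted p rose to 0.167, with fold changes of 3.44 to 4.34. Replicate numbers pair the libraries of this table, and with the number as a block this difference was at log2 fold change 3.54, adjusted p = 0.00376.

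*Fgf8* rose from low to high CHIR in the control (log2 fold change 4.06, standard error 0.83, adjusted p = 0.00606). It had 0, 1.97 and 0.865 counts in low CHIR and 9.89, 56.6 and 40.4 in high CHIR, and every high CHIR library was above those in low CHIR. It passed the filter through its high CHIR libraries, and with a pseudocount of 5 the log2 fold change was 2.56 (adjusted p = 0.00857). In QKO it had 1.16 and 0.977 counts in low CHIR and 1.74, 8.31 and 21.2 in high CHIR (log2 fold change 2.0, standard error 0.93, adjusted p = 0.354). In high CHIR the QKO libraries overlapped the control (log2 fold change -1.84, adjusted p = 0.341), and the interaction was not called (adjusted p = 1). Without control replicate 1 in high CHIR, the control response was at log2 fold change 4.79, adjusted p = 0.00333.

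*Fgf9* stayed between 1572 and 3001 counts in this table. In low CHIR it had 2111, 2824 and 2893 counts in the control and 2140.0 and 3001 in QKO. In high CHIR it had 2327, 2408 and 2763 counts in the control and 1572, 1968 and 2468 in QKO. All groups overlapped, and its log2 fold changes over the 5 comparisons ran from -0.36 to -0.03, none called (adjusted p of at least 0.463). *Fgf2* differed between replicates far more. In the control it had 129.6, 32.6 and 7.78 counts in low CHIR and 69.2, 17.2 and 2.13 in high CHIR, and in QKO 236 and 9.77 in low CHIR and 135, 19.7 and 2.89 in high CHIR. Its highest value in each of the 4 groups fell in replicate 1. The summed level of the 8 stromal markers was also highest there, at 8551 and 4087 in the control in low and high CHIR and 15125 and 8156 in QKO, against 1047 to 3514 in the other 7 libraries, and its part in *Fgf2* was not tested. *Fgf10* ran from 48.7 to 176 counts and was not called in any of the 5 comparisons.

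*Fgfr2* had 349, 332 and 310.4 counts in low CHIR and 558, 614 and 503 in high CHIR in the control, without overlap, and was not called (log2 fold change 0.75, adjusted p = 0.0649). In QKO it had 302 and 408 counts in low CHIR and 304, 517 and 689 in high CHIR, which overlapped (log2 fold change 0.44, adjusted p = 0.531). *Fgfr1* had 2421 to 6072 counts, *Fgfr3* 54.2 to 194 and *Fgfr4* 8.13 to 38.9 over the 11 libraries. None of these 3 receptors was called.

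In this table, limma called 2 of 9 members for the CHIR response of the control, *Fgf1* and *Fgf8*, beside 14.9% of all genes. *Fgf8* passed the filter through its high CHIR libraries, so its call is not independent of the filter. With the replicate block limma called 5 of 9, beside 20.9%, adding *Fgfr2* (log2 fold change 0.75, adjusted p = 0.0327), *Fgfr3* (log2 fold change -0.71, adjusted p = 0.0437) and *Fgf2* (log2 fold change -1.09, adjusted p = 0.0262). Without the block, it called 1 for the CHIR response in QKO, beside 2.54% of all genes (6.0% with the block), 1 for QKO against control in high CHIR, beside 2.54% (7.44% with the block), and 1 for the difference of responses, beside 0.126% (0.857% with the block). For QKO against control in low CHIR it called none, beside 0.0063% of all genes (0.101% with the block). No member had an unadjusted p under 0.05, and edgeR and DESeq2 called none.

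Markers of nephron progenitors, of induced NPCs and of endothelium were also summed in this table. The 10 nephron progenitor markers summed to 23389 to 28928 in the control and 24074 to 25815 in QKO in low CHIR. In high CHIR they summed to 14642 to 16011 and 14044 to 16105, and the groups overlapped at both doses. The 6 induced NPC markers summed to 1485 to 2491 in the control and 1961 to 3375 in QKO in low CHIR, and to 22759 to 40044 and 14522 to 25899 in high CHIR, and the groups overlapped at both doses. Endothelial markers summed to 33.7 to 47.7 in the control and 14.7 to 31.4 in QKO in low CHIR, and to 142 to 235 and 58.2 to 95.6 in high CHIR, so that no library of QKO reached its control at either dose. Their part in the results of the Fgf genes was not tested.

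**Figure D4:**
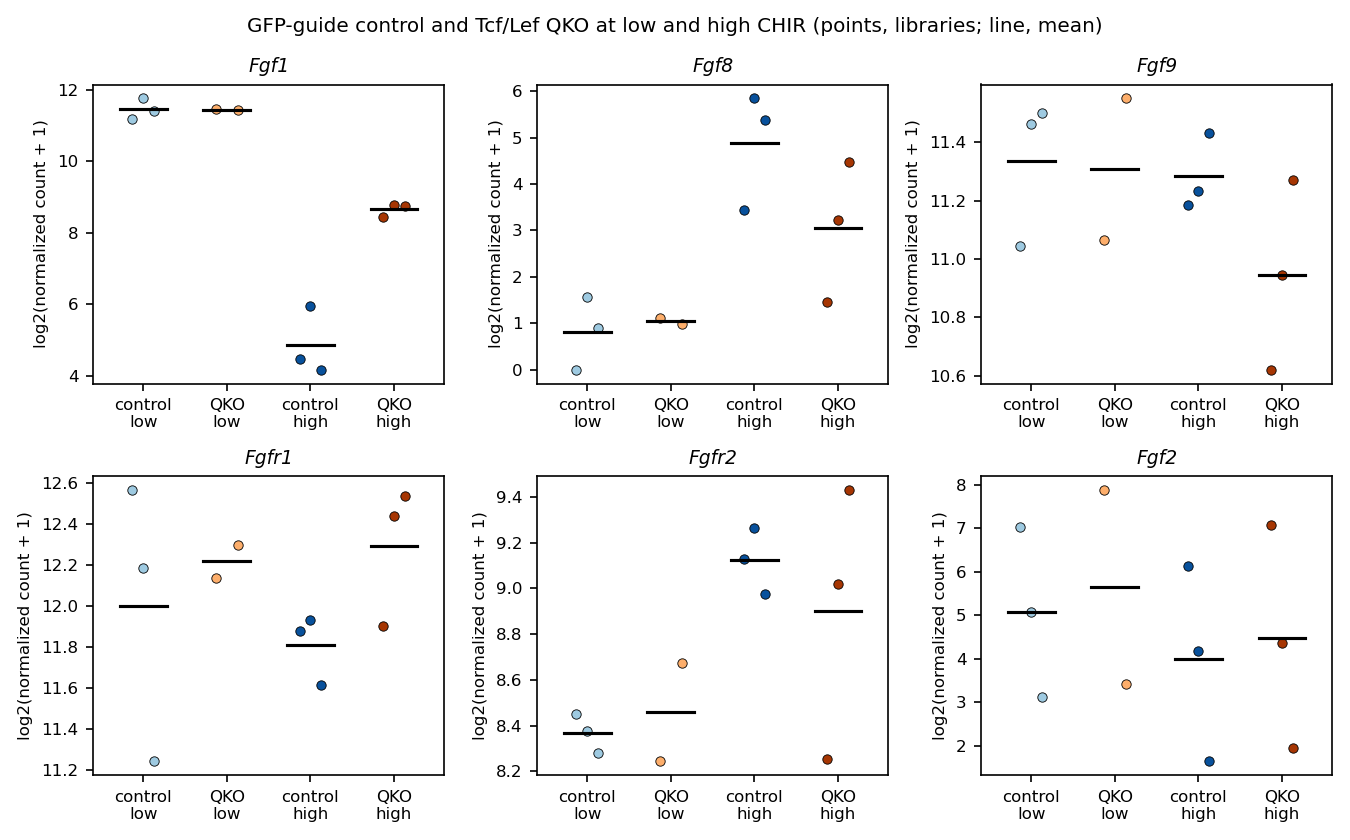
Levels of *Fgf1*, *Fgf8*, *Fgf9*, *Fgfr1*, *Fgfr2* and *Fgf2*, as log2(normalized count + 1), in the GFP-guide control and in QKO at low and high CHIR; points are libraries, lines are means and each panel has its own scale. *Fgf1* in QKO in high CHIR lies between the control at high and at low CHIR, and *Fgf2* spreads over several units within each group.

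**Figure D5:**
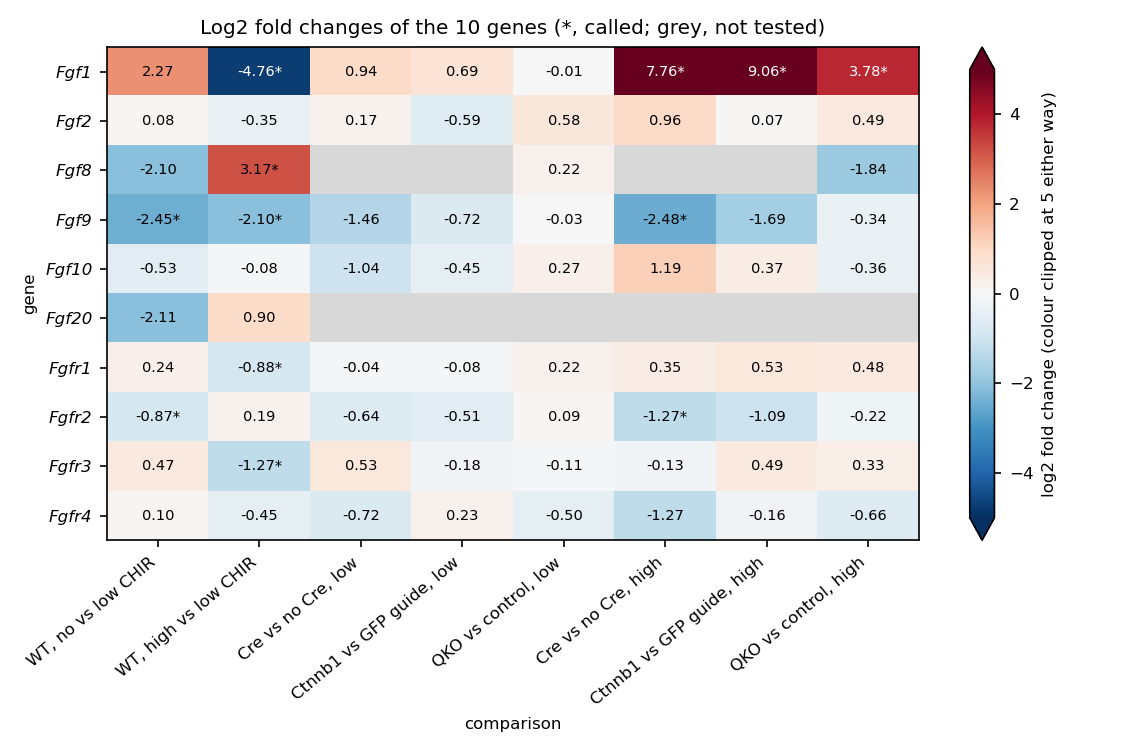
Log2 fold changes of the 10 members (rows) in the 2 wild-type comparisons and in each removal at low and high CHIR (columns), red for higher and blue for lower; a star marks a call and grey a gene that was not tested. *Fgf1* is the only row with calls in all 3 removals in high CHIR, and no column at low CHIR for a removal holds a star; the calls shown are those without the replicate block.

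The levels of the 8 members measured above the filter in all 3 tables were also set against all other genes past it in all 3. The genes most like each, by the mean over the tables of Pearson's r of log2(normalized count + 1) across the 9, 16 and 11 libraries, are given as a description without a test, since the libraries share their CHIR groups. For *Fgf1* they were *Phactr1* (0.97), *Tmem100* (0.96) and *Meox2* (0.96), where the number is the mean r. For *Fgfr2* they were *Pax2* (0.92), *St8sia6* (0.90) and *Dusp9* (0.90), of which *Pax2* is a transcription factor gene of the early nephron lineage. For *Fgf2* they were *Bgn* (0.89), *Cd248* (0.88) and *Casp12* (0.87), of which *Bgn* and *Cd248* are known from mesenchymal cells. The closest genes of *Fgf1*, *Fgfr2* and *Fgf2* thus lay at a mean r of 0.87 or more, while those of the other 5 were less close. For *Fgf9* they were *Ccdc85c* (0.77), *Cth* (0.76) and *Hoxa11os* (0.74). For *Fgfr1* they were *Gm10687* (0.82), *Tns1* (0.79) and *Syne3* (0.78) and for *Fgfr3* *Npr3* (0.80), *Adam23* (0.79) and *Prr33* (0.77). For *Fgf10* they were *Tmem38a* (0.73), *Fbxw9* (0.67) and *Tpm3-rs7* (0.67) and for *Fgfr4* *Ddah2* (0.67), *H2afy2* (0.62) and *Klhdc3* (0.62).

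Among the other 16 Fgf ligand genes of the list, 12 were in the wild-type table and 7 passed the filter there. Of these, 2 were called higher in high than in low CHIR and none lower, beside 10.4% of all genes. They were *Fgf12*, an intracellular family member (adjusted p = 0.0138), with 11.2 to 213 counts in high CHIR and none in the 3 low CHIR libraries, and *Fgf17*, a relative of *Fgf8* (log2 fold change 3.97, adjusted p = 0.0323), with 9.77 to 122 against 0 to 3.94 counts. Both passed the filter through their high CHIR libraries and were highest in replicate 3, the library that stood apart. Without it the adjusted p was 0.0114 for *Fgf12* and 0.0332 for *Fgf17*, whose log2 fold change was then 2.87. These calls held in 5 and 4 of the 6 fits that left out a library. Of the 16 ligand genes, 2 were tested in the β-catenin table. Neither was called in any of the 10 comparisons without the block, beside at most 8.65% of all genes. With it, 1 was called for the CHIR response without Cre, beside 15.9%, and with GFP sgRNA, beside 15.3%. In the QKO table, where 3 were tested, *Fgf15*, an endocrine ligand that passed the filter only through its high CHIR libraries, rose with CHIR both in the control (log2 fold change 4.49, adjusted p = 0.000356) and in QKO (adjusted p = 0.000374), where it had 53.9 to 137 counts in high CHIR and none in both low CHIR libraries. *Fgf18* rose in the control (log2 fold change 1.44, adjusted p = 0.0253), a call that held in 3 of 6 such fits.

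Of the 8 co-receptors and binding proteins, 5 were tested in each table. Of these 5, the calls were 2 for Cre and 1 for Ctnnb1 sgRNA in high CHIR, 2 and 4 for the CHIR response without Cre and with GFP sgRNA, 1 for each difference of responses and 1 for no against low CHIR in wild type, beside 8.65%, 5.09%, 8.05%, 7.51%, 0.995%, 0.518% and 4.97% of all genes in that order. *Flrt3*, a transmembrane protein that binds Fgf receptors, was higher without β-catenin in high CHIR, with Cre (log2 fold change 1.63, adjusted p = 0.000285) and with Ctnnb1 sgRNA (log2 fold change 2.22, adjusted p = 4.03e-05). Its mean was 489 without Cre, 1521 with Cre, 327 with GFP sgRNA and 1539 with Ctnnb1 sgRNA. It fell with CHIR in both controls of that table (log2 fold change -0.86, adjusted p = 0.0241 without Cre and log2 fold change -1.68, adjusted p = 0.000264 with GFP sgRNA), and its interaction terms were called (log2 fold change 1.74, adjusted p = 0.0117 for Cre and log2 fold change 1.99, adjusted p = 0.00818 for Ctnnb1 sgRNA). *Flrt1*, a relative of *Flrt3*, also fell with CHIR in both controls (log2 fold change -3.66, adjusted p = 0.00251 and log2 fold change -4.12, adjusted p = 0.00125), was higher with Cre in high CHIR (log2 fold change 2.21, adjusted p = 0.0482) and was higher without CHIR than in low CHIR in wild type (log2 fold change 3.10, adjusted p = 0.0323). *Fgfrl1*, a receptor-like protein without a kinase domain, and *Flrt2* rose with CHIR in the GFP sgRNA control (log2 fold change 1.47, adjusted p = 0.00334 and log2 fold change 1.57, adjusted p = 0.0417). Of these calls, those of *Flrt3* in high CHIR by both routes and with GFP sgRNA and of *Flrt1* in both controls held in each of 4 fits that left out a library, that of *Flrt2* in none, and the others in 1 or more but not all. In wild type, where none was called between low and high CHIR, *Flrt3* was called without replicate 3 of high CHIR (log2 fold change -2.10, adjusted p = 0.00156). In the QKO table no gene of this list was called in any of the 5 comparisons without the block, beside at most 14.9% of all genes. With it, *Flrt2* and *Flrt3* were called for the CHIR response of the control, beside 20.9%. In the β-catenin table the block gave 1 gene in place of none for Cre in low CHIR, beside 3.06%. It did so too for the CHIR response with Ctnnb1 sgRNA, beside 2.66%, and gave 3 in place of 2 for that without Cre, beside 15.9%.

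Of the 19 adaptor and Ras-ERK cascade genes, all were tested in each table. For the CHIR response, 1 was called without Cre, 1 with GFP sgRNA and 3 in the QKO control. Beside these, 8.05%, 7.51% and 14.9% of all genes were called. With Cre in high CHIR 1 was called, beside 8.65% of all genes. *Gab1*, a docking protein, fell with CHIR without Cre (log2 fold change -0.90, adjusted p = 0.0322) and in the QKO control (log2 fold change -1.24, adjusted p = 0.00905), and was higher with Cre in high CHIR (log2 fold change 0.98, adjusted p = 0.0185). *Frs3*, an adaptor of Fgf receptors, also fell in the QKO control (log2 fold change -1.28, adjusted p = 0.0296). In the QKO control, *Gab1* held in each of 6 fits that left out a library and *Frs3* in 3, while the other *Gab1* calls each held in 1 of 4. In wild type none of the 19 was called in either comparison with all libraries, beside 10.4% and 4.97% of all genes. Without replicate 3 of high CHIR this did not hold, as *Gab1* was then lower in high CHIR (log2 fold change -1.10, adjusted p = 0.00899). None was called for the CHIR response with Cre, with Ctnnb1 sgRNA or in QKO, beside 0.292%, 0.763% and 2.54% of all genes. Nor was any for a removal in low CHIR, beside at most 0.328%, or in the 3 interaction tests, beside at most 0.995%. With the block, 1 in place of none was called for Ctnnb1 sgRNA in high CHIR, beside 12.7% of all genes, and 1 for QKO in high CHIR, beside 7.44%. In wild type their median log2 fold change from low to high CHIR was 0.03, beside 0.01 for all genes.

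Of the 10 feedback inhibitors and Etv targets, 3 fell from low to high CHIR in wild type and none rose, beside 10.4% of all genes. They were *Etv1* (log2 fold change -3.70, adjusted p = 0.00177), *Spred1* (log2 fold change -0.97, adjusted p = 0.00314) and *Spry1* (log2 fold change -0.94, adjusted p = 0.0316), and the *Spry1* call held in 3 of 6 fits that left out a library. *Etv1*, a transcription factor gene raised by ERK, fell with CHIR in the controls without Cre (log2 fold change -2.00, adjusted p = 2.44e-06), with GFP sgRNA (log2 fold change -1.82, adjusted p = 8.2e-06) and for QKO (log2 fold change -3.19, adjusted p = 8.22e-06). It was higher in high CHIR with Cre (log2 fold change 2.17, adjusted p = 1.41e-06), with Ctnnb1 sgRNA (log2 fold change 1.56, adjusted p = 4.33e-05) and in QKO (log2 fold change 1.90, adjusted p = 0.00224). Each of these 7 *Etv1* calls held in every fit that left out a library. In QKO *Etv1* also fell with CHIR (log2 fold change -1.30, adjusted p = 0.031), which held in 1 of 5 such fits. Its response to CHIR differed with Cre (log2 fold change 1.81, adjusted p = 0.000672) and with Ctnnb1 sgRNA (log2 fold change 1.48, adjusted p = 0.00592). *Spry4*, a Sprouty inhibitor, fell with CHIR in those 3 controls (log2 fold change -1.61, adjusted p = 0.000887, log2 fold change -1.21, adjusted p = 0.0075 and log2 fold change -1.20, adjusted p = 3.94e-05) and in QKO (log2 fold change -0.98, adjusted p = 0.00216), and was higher without β-catenin in high CHIR with Cre (log2 fold change 1.60, adjusted p = 0.000917) and with Ctnnb1 sgRNA (log2 fold change 1.03, adjusted p = 0.0277). The call with Ctnnb1 sgRNA held in 1 of 4 such fits and that of the CHIR response with GFP sgRNA in 2 of 4. *Spry1* also fell in the QKO control (log2 fold change -0.99, adjusted p = 0.0165), a call that held in 2 of 6 such fits. *Il17rd*, another inhibitor, rose with CHIR with GFP sgRNA (log2 fold change 1.21, adjusted p = 0.00864) and in the QKO control (log2 fold change 0.82, adjusted p = 0.0341), calls that held in 1 of 4 and 2 of 6 such fits. The 10 genes thus gave 2 calls for Cre and 2 for Ctnnb1 sgRNA in high CHIR, beside 8.65% and 5.09% of all genes, and 1 for QKO, beside 2.54%. For the CHIR response they gave 2 without Cre, 3 with GFP sgRNA, 4 in the QKO control and 2 in QKO, beside 8.05%, 7.51%, 14.9% and 2.54%, and for the differences of responses 1 with Cre and 1 with Ctnnb1 sgRNA, beside 0.995% and 0.518%. With the block these were 5 for Ctnnb1 sgRNA in high CHIR, beside 12.7% of all genes. For the CHIR response they were then 4 without Cre, 5 in the QKO control, 4 in QKO and 1 in place of none with Ctnnb1 sgRNA. Beside these, 15.9%, 20.9%, 6.0% and 2.66% of all genes were called. For the differences of responses they were 2 with Cre, beside 3.13%, and 1 in place of none with QKO, beside 0.857%. In low CHIR none of the 10 was called in any of the 3 removals with or without the block. The share of all genes called there was at most 3.06% with it and 0.328% without it.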

How the data were processed

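The authors sequenced the libraries on SMARTer cDNA, aligned reads with STAR, counted uniquely aligned, unambiguous reads per gene with featureCounts and normalized them with DESeq2. The deposited values are these normalized counts, a signal scaled by size factors per table, and every value came out as a whole number of reads within a tolerance of 0.005. The 50 per-library columns that match no sample label, and the 8 tables of the authors' own comparisons (log2 fold changes and p-values), were not used. Tests used limma 3.58.1 (R 4.3.3) with a mean-dependent prior on log2(normalized count + 1), with all libraries of a table sharing the spread, on genes whose table mean reached 10 normalized counts. The fits were tested on simulated data with known changes. The 17 comparisons were recomputed with a pseudocount of 5, no filter, only the compared libraries, TMM rescaling (edgeR 4.0.16), the replicate number as a block, each library left out, a log2 fold change of at least 1, and edgeR and DESeq2 1.42.0 on the whole reads of 33 libraries. The other 3 libraries stayed out of the count tests, since 1 read there is close to 1 normalized count. Replicate numbers were taken to pair libraries where the deviations of all same-numbered libraries from their group means correlated above 0.1. This held in the QKO table (0.21 to 0.64 over 15 pairs) and within each route of the β-catenin table (0.12 to 0.49 for Cas9 and 0.33 to 0.52 for Cre), where 2 libraries a group give both numbers the same correlation. In the wild-type table they correlated at -0.02 to 0.27 over 9 pairs, and libraries were not paired. All members were named, the other pathway genes were named up to 3 per direction, list and comparison by size of fold change, and the most alike genes were the top 3. Not every gene that this rule names is reported here. The members and lists were chosen with earlier results of these data known. Promoter windows came from RefSeq and gene positions and exon lengths from GENCODE vM21. Depth of 13089780 to 76071568 reads covers counting error only and leaves genes of a few counts, such as *Fgf20*, with little precision.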

Additional observations from a re-analysis of the deposited data

Results flagged for a closer look

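The response of *Fgf1* to high CHIR differed between arms by the interaction term, at a log2 difference of 6.82 for Cre minus no Cre, 8.37 for Ctnnb1 sgRNA minus GFP sgRNA and 3.79 for QKO minus control (limma adjusted p = 0.0145, 0.00602 and 0.0288).

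*Fgf9* moved in opposite directions in every library of 2 arms, with a log2 fold change from low to high CHIR of -2.10 in wild type and 1.47 with GFP sgRNA. *Fgfr3* did so too, at -1.27 in wild type against 0.94 without Cre, 0.91 with GFP sgRNA and 1.58 with Ctnnb1 sgRNA. These differences were not tested, since the tables were scaled separately, and wild-type cells were neither transfected nor sorted. In the QKO control, whose cells were transfected and sorted as well, the log2 fold changes with the replicate block were -0.05 for *Fgf9* and -0.71 for *Fgfr3*. The part of transfection and sorting was not tested.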

How the results depend on the processing

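Of the 21 member results that passed the test, 139 of 147 values under alternatives that kept every library and 89 of 120 with a library left out kept direction and call. The other 8 and 31 kept the direction and lost the call. *Fgf2* for the CHIR response of the QKO control turned from -1.09 to 0.082 without control replicate 3 in high CHIR, the highest of 6 such values (lowest -2.16), and neither was called. No other of the 42 member results followed reversed, and of the 21 not called, 32 of 147 values with every library and 2 with a library left out passed the test. The results followed are only a part of the member results not called, and reversals also occurred outside them. For example, wild-type *Fgf10* and *Fgf20* changed sign between the low and the high dose when high CHIR replicate 3 was left out. *Fgf10* moved from a log2 fold change of -0.08 to 0.89 and *Fgf20* from 0.90 to -2.11, and neither was called. The cause of the changes that follow was not tested.

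Members called for no against low CHIR in wild type (2) were 1 with a log2 fold change of at least 1, 1 without the filter, 4 with only the compared libraries and 4 with DESeq2. With Cre in high CHIR (3) they were 1 with only the compared libraries. With Ctnnb1 sgRNA in high CHIR (1) they were 3 with only the compared libraries and 2 with DESeq2. The CHIR response without Cre (1) had 2 without the filter and 3 with DESeq2, that with GFP sgRNA (2) had 1 with edgeR, and that with Ctnnb1 sgRNA (0) had 1 with only the compared libraries and 1 with DESeq2. With a library left out, the counts ran from 3 to 5 for wild type in high CHIR (5), from 1 to 2 for no against low CHIR (2), from 1 to 3 for Cre in high CHIR (3), from 1 to 2 for the CHIR response without Cre (1) and with GFP sgRNA (2), and from 0 to 1 for the difference of responses with Cre (1) and with QKO (1).

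With the replicate block, the CHIR response of the QKO control rose from 2 to 5 members, and no other count of members in the QKO or wild-type table moved. In the β-catenin table the block gave 1 member in place of 0 with Cre in low CHIR, 4 in place of 1 with Ctnnb1 sgRNA in high CHIR, 6 in place of 1 for the response without Cre, 1 in place of 0 with Ctnnb1 sgRNA, and 2 in place of 1 for both differences of responses.

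Counts over all genes also moved by more than 1.5 times. With a log2 fold change of at least 1 they were 499 for wild type none (865) and 1568 for response of the QKO control (2372). With only the compared libraries they were 1567 for wild type none (865), 4 for Cre low (55), 624 for Cre high (1452), 0 for Ctnnb1 sgRNA low (9), 1728 for Ctnnb1 sgRNA high (854), 552 for response without Cre (1350), 0 for response with Cre (49), 214 for response with Ctnnb1 sgRNA (128), 49 for Cre difference (167) and 0 for QKO low (1). With DESeq2 they were 1788 for wild type none (865), 258 for Cre low (55), 1383 for Ctnnb1 sgRNA high (854), 77 for response with Cre (49), 309 for response with Ctnnb1 sgRNA (128), 300 for Cre difference (167), 166 for Ctnnb1 sgRNA difference (87), 25 for QKO low (1), 884 for response in QKO (403) and 120 for QKO difference (20). With TMM rescaling they were 0 for Ctnnb1 sgRNA low (9). With the replicate block they were 513 for Cre low (55), 2639 for Cre high (1452), 21 for Ctnnb1 sgRNA low (9), 2133 for Ctnnb1 sgRNA high (854), 2661 for response without Cre (1350), 128 for response with Cre (49), 2562 for response with GFP sgRNA (1260), 447 for response with Ctnnb1 sgRNA (128), 526 for Cre difference (167), 235 for Ctnnb1 sgRNA difference (87), 16 for QKO low (1), 1181 for QKO high (404), 952 for response in QKO (403) and 136 for QKO difference (20). With edgeR they were 914 for Cre high (1452), 0 for Ctnnb1 sgRNA low (9), 31 for response with Cre (49), 628 for response with GFP sgRNA (1260), 106 for Cre difference (167), 156 for QKO high (404) and 11 for QKO difference (20). With no filter they were 4 for QKO low (1). With a library left out they ran from 995 to 2207 for wild type high (1808), 113 to 1032 for wild type none (865), 18 to 303 for Cre low (55), 838 to 972 for Cre high (1452), 0 to 1 for Ctnnb1 sgRNA low (9), 204 to 421 for Ctnnb1 sgRNA high (854), 776 to 1724 for response without Cre (1350), 13 to 28 for response with Cre (49), 504 to 666 for response with GFP sgRNA (1260), 31 to 67 for response with Ctnnb1 sgRNA (128), 95 to 165 for Cre difference (167), 29 to 61 for Ctnnb1 sgRNA difference (87), 0 to 4 for QKO low (1), 157 to 480 for QKO high (404), 1545 to 3112 for response of the QKO control (2372), 129 to 308 for response in QKO (403), 4 to 50 for QKO difference (20).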
